A study of Homo sapiens with 19 samples.

Results

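Human mitochondria carry their own ribosome, which translates the few proteins encoded in mitochondrial DNA. Its protein subunits are all encoded in the nucleus, and most of their genes carry the names MRPL (large subunit) or MRPS (small subunit) with a number. The members described here are the 78 genes, of 19942 protein-coding genes in the expression and eCLIP tables, whose GENCODE gene name is MRPL or MRPS followed by a number and at most 1 further letter. In the table of transcripts they were represented by 475 of 256980 transcripts. Of the 78 genes, 51 encode proteins of the large subunit and 26 encode proteins of the small subunit. MRPS36 has a ribosomal name but encodes KGD4, a component of the oxoglutarate dehydrogenase complex, and was kept because the rule takes it. The names do not always give the subunit: MRPS30 (mL65) and MRPS18A (mL66) belong to the large one. Among the 77 ribosomal proteins, 45 were classed as having a bacterial homologue and 32 as specific to mitochondria. These classes match the prefix of the protein name, u or b against m. By that prefix MRPS18A and MRPS18B (mS40) count as specific, although their paralog MRPS18C (bS18m) counts as a homologue.

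Stress granules (SGs) are cytoplasmic assemblies of untranslated mRNA and RNA-binding proteins that form when translation initiation is blocked, and G3BP1 and G3BP2 are their core scaffold proteins. Nuclear-encoded mitochondrial ribosomal protein mRNAs are translated by cytosolic ribosomes before the proteins are imported. The mitochondrial ribosome itself is assembled from a small subunit that decodes mRNA and a large subunit that forms peptide bonds.

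All libraries came from SH-SY5Y, an established human neuroblastoma cell line. Poly(A) RNA-seq was made from cells given a control siRNA (siCtrl), an siRNA against G3BP1 (siG3BP1) or an siRNA against G3BP2 (siG3BP2). SG cores immunopurified with a G3BP1 antibody from sodium arsenite (AS)-treated cells (SG) and the lysate RNA of such cells (Total) were sequenced in the same way, and a further pair of rRNA-depleted libraries compared untreated with AS-treated cells. G3BP1 and G3BP2 eCLIP, which sequences RNA crosslinked to an immunoprecipitated protein, was done in duplicate in untreated and in AS-treated cells. The AS dose was 500 μM for 1 h by the study's methods and by 1 label, while other labels, those of untreated and siRNA libraries included, carry a dose of 50 mM for 1 h.

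Each RNA-seq condition had 1 library, so no RNA-seq difference below has a replicate check or a test, and a fold threshold describes these libraries only. The siRNA targets followed their labels: G3BP1 stood at 18.7, 5.996 and 16.5 TPM (transcript abundance scaled to a fixed library total) in siCtrl, siG3BP1 and siG3BP2, and G3BP2 at 38.1, 39.4 and 11.4 TPM. The noradrenergic markers DBH (872 TPM) and HAND2 (874 TPM) were high in siCtrl, and the marker TH was near 0 (0.304 TPM). The 8 eCLIP libraries differed in the total behind their values from 4268911 to 26179736, and in each group 1 duplicate had a total at least 2 times that of the other. TPM carry no depth, so no counting error can be given for them.

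In siCtrl the members' levels ran from 0.136 to 339 TPM with a median of 50.8 TPM, and 77 of 78 were above 1 TPM. The most abundant were MRPL12 (bL12m, of the stalk that recruits translation factors) at 339 TPM, MRPS24 (uS3m, near the mRNA entry) at 291 TPM and MRPL53 (mL53) at 256 TPM. At the other end stood MRPS18B at 0.136, MRPL42 at 4.82 and MRPL19 at 4.95 TPM. The median over the large subunit was 62.5 TPM and that over the small subunit 33.0 TPM. Together the members took 0.910% of the TPM in the siCtrl table, against 19.8% for 88 genes of the cytosolic ribosome and 2.47% for 77 nuclear-encoded subunits of oxidative phosphorylation.

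Most members were scarcer in SG cores than in Total RNA. Of the 78 members, 48 (61.5%) were SG-depleted, meaning that the ratio of TPM + 1 was below 0.5 with more than 1 TPM in Total, against 9.45% of the 13560 genes above 1 TPM in either library. Only 6 (7.69%) were SG-enriched by a ratio above 2, against 62.9% of those genes, and 24 were neither. The median log2 ratio of SG to Total was -1.43 over the members, a fold of 0.372, and 1.51 over all genes. In the whole table the members summed to 2440 TPM in SG and 6225 TPM in Total. TPM are shares of a library, so fewer copies of the members and more of other RNAs cannot be told apart. A typical gene was 2.777-fold higher in SG, and when the SG library was scaled so that this median ratio became 1, 0 members were SG-enriched and 70 were SG-depleted. The counts of enriched members are therefore relative to a library in which most genes had higher TPM.

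**Figure D1:**
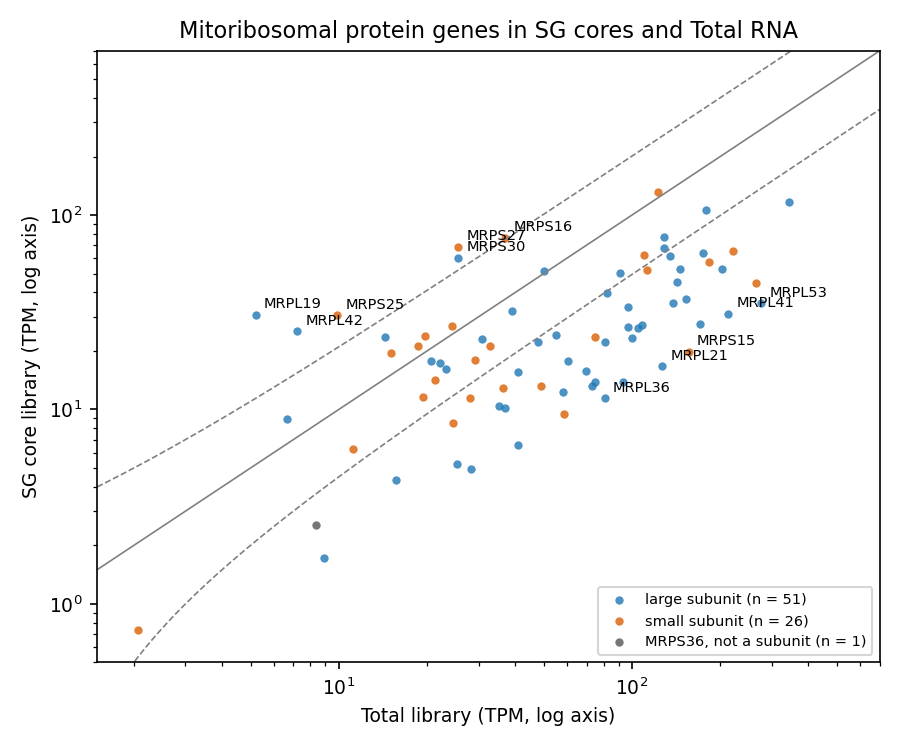
Expression of each member in the Total library (x axis, TPM, log scale) and in the SG core library (y axis, TPM, log scale), 1 library each. Each point is a gene, coloured by ribosomal subunit, the solid line marks equal TPM and the dashed lines mark ratios of 2 and 0.5 of TPM + 1. Most points lie below the lower dashed line, and the 6 SG-enriched genes lie at or above the upper one.

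The depletion was more frequent among large-subunit genes. In the large subunit 36 of 51 genes were SG-depleted and 3 were SG-enriched, with a median log2 ratio of -1.64. In the small subunit 11 of 26 genes were depleted and 3 enriched, with a median of -0.78. Genes classed as having a bacterial homologue (29 of 45 depleted, median -1.42) and those classed as mitochondrion-specific (18 of 32 depleted, median -1.56) had similar medians. These are counts in 1 pair of libraries, and the differences between the gene classes were not tested.

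The strongest depletion was seen for MRPL53, with 35.4 TPM in SG cores and 276 TPM in Total (log2 ratio -2.93). MRPS15 (uS15m, a ribosomal RNA-binding protein of the small subunit) fell from 156 to 19.9 TPM (-2.91), and MRPL21 (bL21m) from 127 to 16.7 TPM (-2.85). MRPL41 (mL41) had 213 and 31.1 TPM (-2.74), and MRPL36 (bL36m) 80.7 and 11.4 TPM (-2.72). The MANE Select transcripts of these 5 genes, defined below, have at most 953 nt.

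The threshold divided neighbouring values. MRPL18 (uL18m, which contacts the structural RNA of the central protuberance) was just inside the depleted class, with 39.6 TPM in SG cores and 82.5 TPM in Total (-1.04). MRPL38 was just outside, with 68.1 and 128 TPM (-0.90). These ratios differ little, although the calls differ.

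Some members are given here by the position of their protein in the ribosome, a grouping made after their values were seen. Among genes of the factor-binding stalk and its base, the log2 ratio was -2.36 for MRPL11 (uL11m), -1.55 for MRPL12 (bL12m) and -0.84 for MRPL10 (uL10m). Around the exit tunnel it was -2.16 for MRPL23 (uL23m), -2.37 for MRPL47 (uL29m), -1.86 for MRPL22 (uL22m), -1.64 for MRPL45 (mL45, which anchors the ribosome to the inner membrane) and -0.75 for MRPL24 (uL24m). Near the peptidyl transferase centre it was -1.95 for MRPL27 (bL27m), -1.16 for MRPL2 (uL2m) and -0.73 for MRPL3 (uL3m). MRPS12 (uS12m, at the decoding centre) had 6.28 TPM in SG cores and 11.2 TPM in Total (-0.74).

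The 6 SG-enriched genes were low to moderate in Total. MRPL19 (bL19m, at the subunit interface) went from 5.2 TPM in Total to 30.7 TPM in the cores, the highest log2 ratio of the members at 2.36. MRPL42 (mL42) had 7.23 and 25.2 TPM (1.67), and MRPS25 (mS25) 9.88 and 30.6 TPM (1.54). MRPS27 (mS27, a pentatricopeptide-repeat protein) had 25.5 and 68.8 TPM (1.40). MRPS30 (mL65) had 25.6 and 60.4 TPM (1.21). MRPS16 (bS16m) had 37.0 and 76.5 TPM (1.03), just past the threshold. Scaled to the median gene, the log2 ratio of MRPS16, MRPS27 and MRPS30 fell below 0, to -0.41, -0.04 and -0.22.

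SG-enriched members had long transcripts and depleted members short ones. The MANE Select transcript, the representative transcript chosen for each gene, had a median length of 3671 nt in the 6 enriched genes, 1768 nt in the 24 genes of neither class and 1046 nt in the 48 depleted genes. The 3′UTR differed most, with medians of 2966, 889 and 294 nt, while the coding sequence had medians of 701, 612 and 582 nt. Over the 78 members the log2 ratio of SG to Total correlated with log length of the longest annotated transcript at r = 0.568 (Spearman's rho 0.415) and with that of the MANE Select transcript at r = 0.723 (rho 0.681). For the 3′UTR r was 0.625 and for the coding sequence 0.236. All points share the same 2 libraries, and the members with high Total TPM also had low ratios (r = -0.593), so these correlations are descriptions only. Over other genes the correlation with MANE Select length was 0.700 (n = 12823).

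**Figure D2:**
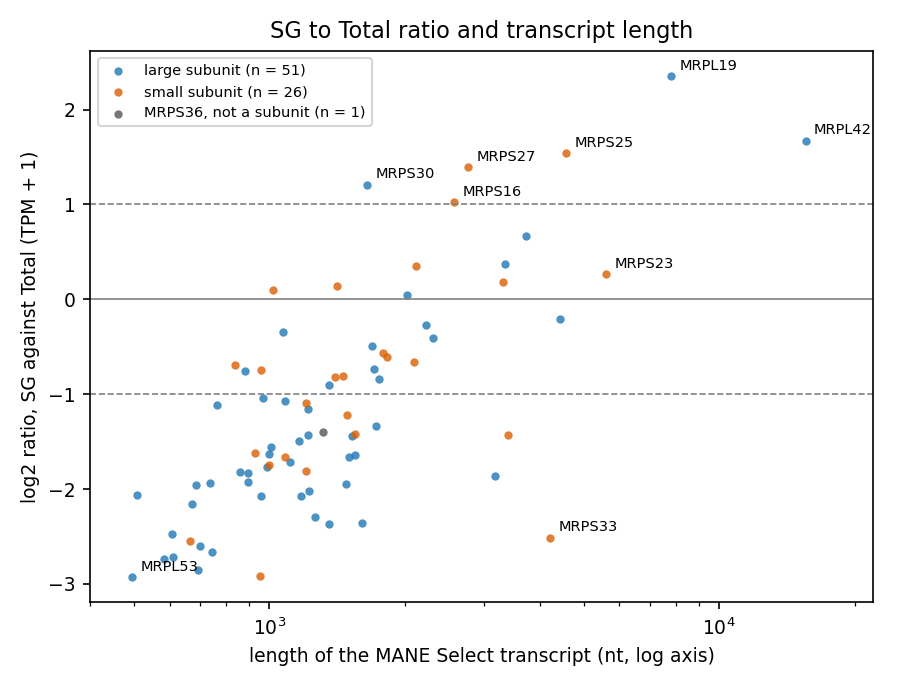
Log2 ratio of SG to Total TPM + 1 (y axis) against the length of the MANE Select transcript (x axis, nt, log scale) for the 78 members, coloured by subunit. The dashed lines mark log2 ratios of 1 and -1; all enriched genes have transcripts of 1648 nt or more, and MRPS33 is a long transcript that was nevertheless depleted.

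Some members departed from the order of length. MRPS33 (mS33), with a transcript of 4210 nt, fell from 58.8 TPM in Total to 9.48 TPM in the cores (-2.51), and MRPS11 (uS11m, of the platform) with 3392 nt and MRPL22 with 3173 nt had ratios of -1.43 and -1.86. MRPS30 was enriched with only 1648 nt. Among genes whose longest transcript was under 1500 nt, 24 of 31 members were depleted and the median was -1.67, against 41.9% and -0.70 for other genes of that length. Between 1500 and 2500 nt, 17 of 28 members were depleted and the median was -1.43, against 15.8% and 0.29. At 2500 nt and over, the members had a median of 0.18 and other genes a median of 2.03. These bins rest on the longest annotated transcript and are not matched for Total TPM. In the last bin the depleted MRPL32, MRPL46, MRPS6 and MRPS22 have MANE Select transcripts of only 859, 986, 931 and 1205 nt. The other depleted members there are MRPS33, MRPS11 and MRPL22, with the lengths given above. The members also have short leaders, with a median 5′UTR of 30.5 nt against 143 nt in other genes expressed in SG or Total, but across members the 5′UTR length and the ratio had r = -0.022.

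Other gene groups of ribosomes and mitochondria are given by their counts, against the same shares of all genes. The 88 cytosolic ribosomal protein genes, of which 84 were above 1 TPM, were depleted in 81 cases with a median log2 ratio of -4.01, and the 77 oxidative phosphorylation subunits in 66 cases with a median of -2.91. Among 5 mitoribosomal proteins with other names, CHCHD1 (-2.71), AURKAIP1 (-2.03) and GADD45GIP1 (-1.999) were depleted, DAP3 was neither (-0.94) and PTCD3 was enriched (1.04). Of 12 mitochondrial translation factors, 6 (50.0%, background 62.9%) were enriched and 0 (background 9.45%) depleted, among them the elongation factor GFM1, at 35.5 TPM in SG cores and 7.86 TPM in Total (2.04), and MTFMT, which formylates the initiator tRNA, at 24.7 and 4.52 TPM (2.22). Of 26 mitoribosome assembly factors, 6 (23.1%) were enriched and 2 (7.69%) depleted, with MTG2, a GTPase of large-subunit maturation, at 80.5 and 12.3 TPM (2.61). In the list of 6 mRNA and membrane-insertion factors, LRPPRC was enriched (3.03) and its partner SLIRP depleted (-3.63). The members and these lists were not chosen independently of earlier results of these libraries.

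The word that defines the main RNA motif of the G3BP1 eCLIP peaks was looked for in the members' MANE Select transcripts. Its words are CCAGCCTGG and CCAGGCTGG, each the reverse complement of the other, so that searching both on the transcript strand covers both strands, and they cannot start at the same position. At least 1 of them was present in 24 of 78 members (30.8%) and in 28.4% of 19061 MANE Select transcripts of protein-coding genes. Other genes within the interquartile range of the members' length held one in 10.3% of cases. The members' shares, here and by class below, cover members of all lengths, up to the 15557 nt of MRPL42. They are therefore not matched in length to the shares of those other genes. Whether members and other genes of equal length differ was not tested. In 22 members the word lay in the 3′UTR. It was present in 5 of the 6 SG-enriched members, in 10 of 24 in neither class and in 9 of 48 depleted members, but these classes also differ in length, and a longer transcript has more places to match. Over all genes the shares were 37.3%, 24.1% and 13.9%, and over other genes within the interquartile range of the members' length 15.6%, 10.1% and 11.4%.

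The windows below show a match in each of 2 SG-enriched genes, and 1 in MRPL48, which had one of the highest eCLIP values. Capitals mark the palindrome, the flanks are 8 bases each, and sequences are written 5′ to 3′ on the transcript strand from GENCODE release 44 (GRCh38); all lie in the 3′UTR.
MRPL19, chr2:75661361-75661385, plus strand: tatactgaCCAGGCTGGtcttgaac
MRPS16, chr10:73248952-73248976, minus strand: actacagtCCAGCCTGGgtgacaga
MRPL48, chr11:73864751-73864775, plus strand: gcttgagaCCAGCCTGGcaacattc
MRPL42 held 11 matches in a 3′UTR of 14993 nt and MRPS23, which was in neither class, held 6. MRPS30 was SG-enriched with no match. MRPS22 and MRPS28, which together with MRPL48 had the highest eCLIP values, also held no match. A match is a description of the letters and not a binding site.

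Few members differed by more than 2-fold between a knockdown and the control, and few of all genes did. The backgrounds given here are not matched for level. In siCtrl the median was 50.8 TPM over the members and 14.0 TPM over all genes above 1 TPM there. In bulk RNA, a change in every cell and a change in some of the cells cannot be told apart. In siG3BP1 against siCtrl, 1 of the 77 members above 1 TPM was higher by more than 2-fold (background 2.53%) and 0 were lower (background 3.69%), with a median log2 ratio of -0.06 over the members and -0.09 over all genes. In siG3BP2 against siCtrl, 1 of 78 was higher (background 2.43%) and 0 lower (background 5.62%), with medians of 0.00 and -0.13. The middle 50% of members lay between -0.16 and 0.06 in siG3BP1 and between -0.13 and 0.13 in siG3BP2. Both comparisons share the siCtrl library.

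The member past 2-fold in siG3BP1 was MRPL22. It stood at 7.99 TPM in siCtrl, 29.4 TPM in siG3BP1 and 7.52 TPM in siG3BP2, and at 8.92 TPM in Total. The siG3BP1 library is thus the high one among these 4 (log2 ratio to siCtrl 1.88). Behind it came MRPS14 (uS14m) with 15.8 and 19.7 TPM (0.31) and MRPL46 (mL46) with 26.2 and 31.9 TPM (0.29) in siCtrl and siG3BP1. The lowest ratios were those of MRPL23, with 42.4 and 26.5 TPM (-0.68), MRPS30 with 29.1 and 20.7 TPM (-0.49), and MRPL17 (bL17m) with 35.5 and 25.8 TPM (-0.46).

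The member past 2-fold in siG3BP2 was MRPS18B (mS40), at 0.136 TPM in siCtrl, 0.646 TPM in siG3BP1, 2.57 TPM in siG3BP2 and 2.07 TPM in Total. Its level was the lowest of all members in siCtrl, and with a minimum of 5 TPM the call is lost. Its paralogs moved less: MRPS18A (mL66) had 79.5, 79.9 and 76.6 TPM and MRPS18C (bS18m) had 19.3, 17.0 and 21.8 TPM in siCtrl, siG3BP1 and siG3BP2. Among more abundant members in siG3BP2, MRPL1 (uL1m, of the stalk at the tRNA exit) had 11.8 TPM in siCtrl and 18.8 TPM (0.66), MRPL27 (bL27m, whose bacterial homologue reaches into the peptidyl transferase centre) 59.7 and 92.3 TPM (0.63), and MRPL13 (uL13m) 18.4 and 24.4 TPM (0.41). The lowest were MRPS33, with 59.8 and 40.1 TPM (-0.58), MRPL21, with 102 and 70.4 TPM (-0.54), and MRPL23, with 42.4 and 33.1 TPM (-0.36).

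**Figure D3:**
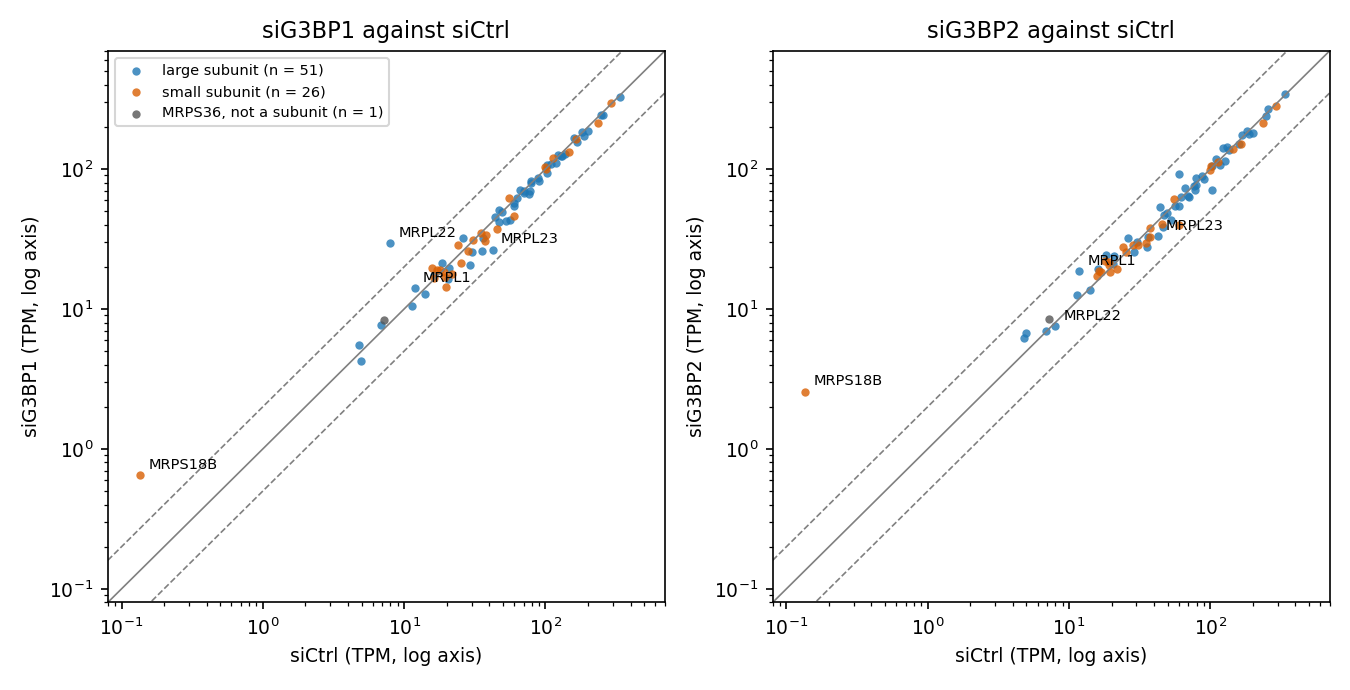
TPM of each member in siCtrl (x axes, log scale) and in siG3BP1 (left) or siG3BP2 (right) (y axes, log scale), 1 library each, coloured by subunit. Solid lines mark equal TPM and dashed lines mark ratios of 2 and 0.5; MRPL22 lies above the upper line on the left and MRPS18B above it on both sides, although in siG3BP1 it stays below 1 TPM and was not called.

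Set against each other, siG3BP2 and siG3BP1 differed by more than 2-fold for MRPS18B, which was higher in siG3BP2 (background 2.43%), and for MRPL22, which was lower (background 3.92%). The median log2 ratio of siG3BP2 to siG3BP1 was 0.05 over the members and -0.04 over all genes. After these, MRPL27 (57.0 and 92.3 TPM, 0.70) and MRPL21 (93.9 and 70.4 TPM, -0.42) had the widest ratios in either direction. Of the 49 genes on the 4 lists of other mitochondrial translation genes, METTL15, which methylates the small-subunit rRNA, was the only one past 2-fold in either knockdown, at 0.094, 2.24 and 0.106 TPM in siCtrl, siG3BP1 and siG3BP2.

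Total RNA of AS-treated cells and siCtrl differ in AS, in siRNA and in how the lysate was cleared, and these cannot be told apart. Few members were lower in Total, whereas many genes were. Only 2 of 78 members were below 0.5-fold, against 27.2% of genes, and 2 were above 2-fold, against 2.37%. Of 77 oxidative phosphorylation subunits 1 was lower and 3 were higher (median log2 ratio 0.14). Of 84 cytosolic ribosomal protein genes 2 were lower and 6 higher (0.37). Of other genes with a longest transcript in the members' interquartile range, 10.9% were lower and 2.8% higher (-0.19). The pattern is thus not particular to the members, and the share of all genes is not matched for length or level. The median log2 ratio was 0.15 over the members and -0.48 over all genes, and scaled to the median gene 7 members were higher and 1 lower. MRPS12 was the lowest, with 35.1 TPM in siCtrl and 11.2 TPM in Total (-1.65), while siG3BP1 and siG3BP2 had 34.7 and 29.5 TPM. MRPS25 had 24.0 and 9.88 TPM (-1.28). MRPL1 was higher, at 11.8 and 25.4 TPM (1.1), and MRPS18B rose from 0.136 to 2.07 TPM. Behind MRPL1 came MRPL27 with 59.7 and 105 TPM (0.81) and MRPS31 (mS31) with 17.0 and 28.0 TPM (0.73), and MRPL34 (bL34m) had 199 and 135 TPM (-0.56).

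The rRNA-depleted pair compared AS-treated with untreated cells directly, with values per transcript (RPKM, reads scaled to transcript length and library size). The reads summed over transcripts, 23301040 in untreated and 23353992 in AS-treated cells, exceed the 13291959 and 11281587 reads that the values imply for the libraries, so transcripts of a gene were treated as sharing reads and not as independent. Of the 475 member transcripts, 411 were above 1 RPKM in either library. Among them 12 (2.92%, background 6.84%) were higher by more than 2-fold after AS and 3 (0.73%, background 2.01%) were lower. The median ratio was 1.178 over the member transcripts and 1.204 over all transcripts, so the members moved with the whole table. With 1 MANE Select transcript for each of 77 members, 73 were above 1 RPKM, the median level was 7.26 RPKM in untreated and 8.09 RPKM in AS-treated cells, and the median ratio was 1.205, against 1.231 over all MANE Select transcripts. Of the 76 members with reads, 28 (36.8%) had an exact 95% counting interval of the ratio above 1, 48 an interval that included 1 and 0 one below 1. Over all 14282 MANE Select transcripts with reads, 5852 had an interval above 1, a larger share than among the members, and 266 (1.86%) one below 1. The intervals cover counting error of these 2 libraries only. They are set against 1 and not against the median ratio of 1.231, so the counts above and below 1 include the shift of the whole table.

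MRPS36, the member that is not a ribosomal protein, was the only one of these MANE Select transcripts past 2-fold (1 of 73, or 1.37%, background 3.9%). It had 11 reads (0.629 RPKM) in untreated and 30 reads (2.02 RPKM) in AS-treated cells, a ratio of 3.21 with an interval of 1.57 to 7.11, and 2 further MRPS36 transcripts were also called. The other transcripts called were minor ones of other genes. An MRPL55 isoform (ENST00000464148.2) had 5 and 17 reads (ratio 4.01, interval 1.42 to 13.9), and an MRPL18 transcript without a defined coding sequence (ENST00000479638.5) had 10 and 26 reads (3.06, 1.43 to 7.12). Of the 3 lower transcripts, 2 were retained-intron forms: one of MRPS11 (ENST00000559125.1) with 11 and 3 reads (0.321, 0.0576 to 1.22), and one of MRPL52 (ENST00000557543.5) with 34 and 14 reads (0.485, 0.241 to 0.928). The third, of MRPL38 (ENST00000410030.1), had 17 and 6 reads (0.416, 0.134 to 1.11). Among retained-intron transcripts above 1 RPKM, 2.99% of the members' were lower, near the background of 2.92%. Another 2.99% were higher (background 6.14%).

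4 further members are given as examples. MRPS24 had 31.8 RPKM in untreated and 34.6 RPKM in AS-treated cells (ratio 1.09, interval 0.914 to 1.29), and MRPL12 24.3 and 31.1 RPKM (1.28, 1.1 to 1.49). MRPL42, with the longest transcript, had 4.83 and 4.73 RPKM (0.98, 0.893 to 1.08), and MRPS33, with 4210 nt, 2.36 and 4.06 RPKM (1.72, 1.37 to 2.17). The median ratio over all MANE Select transcripts, 1.231, lies within the interval of MRPL12 and above that of MRPL42.

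The MANE Select transcripts of 4 members had almost no reads in the rRNA-depleted pair although their genes had TPM. MRPS12 had 0 reads in untreated and 1 read in AS-treated cells, and MRPS18B 0 reads in both. MRPL23 had 1 and 4 reads, and MRPL45 5 and 0 reads. In siCtrl MRPS12, MRPL23 and MRPL45 stood at 35.1, 42.4 and 11.4 TPM. MRPS12 and MRPS18B were also the only members at 0 in all 8 eCLIP libraries, MRPL23 was above 0 in only 3 of the 8, and MRPL45 was between 0 and 1.28 on the log10 scale. How the separate pipelines assigned reads to these loci was not tested, and zeros there are not taken as absence.

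eCLIP values were deposited per gene as log10 of a whole number plus 1. Whether signal of the size-matched input had been removed from them was not tested. A value in both duplicates was found for 67 of 78 members (85.9%) for G3BP1 in untreated cells, against 89.1% of all genes, and for 67 (85.9%) for G3BP2, against 91.9%. After AS it was found for 54 (69.2%) for G3BP1, against 86.4%, and for 65 (83.3%) for G3BP2, against 90.4%. The AS G3BP1 group also holds the library with the lowest total, in which 56 members had a value, against 71 in its duplicate. The median log10 value of the members was 1.87 and 1.39 in the duplicates for G3BP1 in untreated cells and 1.82 and 1.13 after AS. For G3BP2 it was 1.92 and 1.51 in untreated cells and 1.91 and 1.40 after AS. The spread between duplicates was larger than the difference between treatments.

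The highest values belonged to 3 genes with wide genomic spans. MRPS28 (bS1m) had 3.38 and 2.93 for G3BP1 and 3.48 and 3.15 for G3BP2 in untreated cells, and 3.45 and 2.71 for G3BP1 and 3.46 and 3.0 for G3BP2 after AS. MRPS22 (mS22) had 3.43 and 2.76, and 3.47 and 3.07, in untreated cells, and 3.38 and 2.71, and 3.45 and 2.92, after AS, in the same order. MRPL48 (mL48) had 3.39 and 2.84, and 3.38 and 2.96, and after AS 3.46 and 2.55, and 3.41 and 2.84. In each of the 3 genes the untreated and AS-treated values overlap for both proteins. The lowest means above 0 were those of MRPL41 (0.60 in 1 library and 0 in the other 7), of MRPS36 (0.70 and 0.78 for G3BP1 in untreated cells and 0 elsewhere) and of MRPL12 (between 0 and 0.48).

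These values were higher in genes of wider span. Across members the mean over the 8 libraries and log10 of the genomic span, introns included, had r = 0.794 (n = 78), and across other genes r = 0.844 (n = 19832). With the length of the longest transcript in place of the span r was 0.515. MRPL48 spans 77262 bp and MRPS22 354692 bp, against a median of 11940 bp over the members and 27597 bp over all genes. MRPL41 spans 677 bp and is nonetheless abundant, at 246 TPM in siCtrl. Expression and the mean eCLIP value had r = -0.236 across members, and the SG to Total ratio and the mean eCLIP value had r = 0.291. All points share libraries, and neither correlation carries a test.

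**Figure D4:**
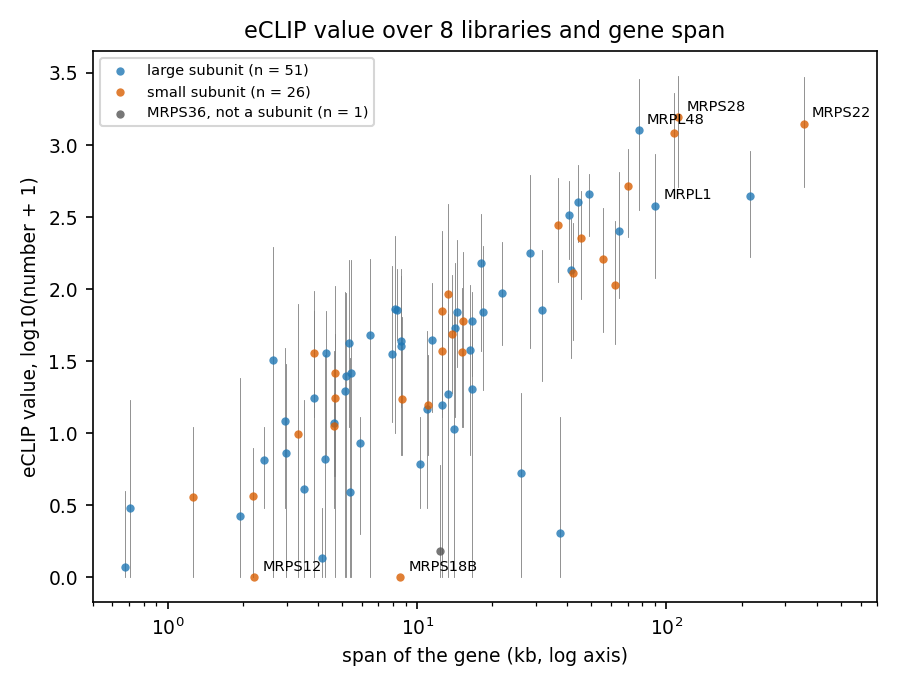
Mean eCLIP value of each member over 8 libraries (y axis, log10 of the deposited number plus 1) against the span of the gene (x axis, kb, log scale), coloured by subunit. Grey bars run from the lowest to the highest library; values rise with the span, and MRPS12 and MRPS18B stay at 0.

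No member was called in any of 5 eCLIP comparisons by limma with Benjamini-Hochberg adjustment at 0.05. For AS against untreated, 74 members were tested with G3BP1 and 73 with G3BP2, and 0.0% and 0.0105% of all genes tested were called. At an unadjusted p under 0.05 there were 0 higher (background 0.0847%) and 2 lower members (background 0.159%) for G3BP1, and 0 higher (background 0.368%) and 2 lower (background 0.468%) for G3BP2. In all 5 comparisons, far fewer genes passed this p than a limit of 0.05 would pass with no change at all. The fit used values not scaled to the library totals, and 0 calls from it do not show a lack of change. The smallest p for G3BP1 was that of MRPS7 (uS7m), whose values were 2.02 and 1.65 before AS, then 0 and 0.78 after it, a change of -1.45 ± 0.61 (SE, limma, adjusted p = 1). For G3BP2 it was that of MRPL55 (mL55), with 1.95 and 2.29 before AS, then 2.12 and 0 after it, a change of -1.06 ± 0.43 (SE, limma, adjusted p = 1). The MRPL55 change rests on a zero in 1 of its AS duplicates. MRPS7 also has a zero in 1 AS duplicate, and both of its AS values lie below both untreated values.

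Differences between the proteins were no firmer. The direct test of whether the change after AS differed between G3BP2 and G3BP1 called 0 of 75 members (background 0.0%), with 1 higher at an unadjusted p under 0.05, and without a filter on zeros 1 member passed. That test ranked MRPS34 (mS34) first, at 0.85 and 1.04 for G3BP1 and 0 and 0 for G3BP2 in untreated cells, and 0.85 and 0 for G3BP1 and 0.85 and 0.85 for G3BP2 after AS (difference of changes 1.37 ± 0.65, SE, limma, adjusted p = 1). G3BP2 against G3BP1 called 0 of 75 members in untreated cells and 0 of 71 in AS-treated cells (background 0.0% in both), with 1 lower member and 0 members at an unadjusted p under 0.05. In AS-treated cells MRPL49 (mL49) came first, with 1.36 and 0 for G3BP1 and 1.97 and 1.45 for G3BP2.

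Without a test, both AS values lay below both untreated values for 8 members with G3BP1 (10.3%, background 2.15%) and for 4 with G3BP2 (5.13%, background 3.19%). They lay above for 2 members with G3BP1 (2.56%, background 0.807%) and for 5 with G3BP2 (6.41%, background 1.44%). The backgrounds are not matched for the size of the values. In the untreated G3BP1 duplicates the median log10 value was 1.87 and 1.39 over the members, against 2.44 and 1.9 over all genes. Whether the members' larger shares go beyond their lower values was not tested. MRPL46 was below with both proteins: its G3BP1 values were 1.97 and 1.23 before AS, then 1.08 and 1.11 after it, and its G3BP2 values 2.16 and 1.72, then 1.63 and 1.52. MRPS17 (uS17m) and MRPS21 (bS21m) were above with both. MRPS21 had 1.04 and 1.46, then 1.98 and 1.77, for G3BP1, and 1.18 and 1.36, then 2.01 and 1.69, for G3BP2. MRPS17 overlaps NIPSNAP2 on the same strand, and MRPL46 overlaps the gene ENSG00000173867, so that reads of both may be shared with other genes. None of these members passed the test above.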

How the data were processed

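The members and gene lists were chosen with earlier results of these data known. Poly(A) RNA-seq values are TPM per gene as deposited by the authors (GRCh38, GENCODE), with 1 library per condition and 5 libraries in all. The deposited eCLIP values are log10 of a whole number plus 1 per gene and library. The methods describe peaks normalised to size-matched input, and whether input was removed from the per-gene values was not tested. The 2 rRNA-depleted libraries, aligned by the authors with HISAT2 2.1.0 per the labels, are headed TPM in the deposited table, but each value times transcript length was a whole multiple of 1 step within 0.05 reads, as RPKM is, so they were treated as RPKM. Of their transcripts 88.5% matched GENCODE release 44, and the steps imply 13291959 and 11281587 reads per library. Size-matched input libraries were not analysed here.

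SG against Total was called on TPM + 1 (ratio above 2 or below 0.5, above 1 TPM in the higher library), and the other RNA comparisons on plain ratios with the same limits and no test. Ratios of reads carry exact 95% intervals (Clopper-Pearson). eCLIP comparisons used limma 3.58.1 (R 4.3.3) with trend, on genes above 0 in at least 2 libraries, 2 libraries per group, adjusted over all genes. Whether duplicates were separate cultures is not stated in the labels, so p-values may measure technical spread only. Named genes were taken from the 5 highest and 5 lowest (3 for other comparisons) at 10 TPM or more (1 RPKM for transcripts). All members called where 10 or fewer were, the extremes in siCtrl and eCLIP, the 3 smallest p per limma comparison and the MRPS18 paralogs were added. Not every gene of these sets is given in the text, and for untreated G3BP2 against G3BP1 none is named by p. Genes named for their place in the ribosome, MRPL18 and MRPL38 at the threshold, MRPS11, MRPS33, MRPS23, the 4 members with few reads and the examples among the other lists were chosen after their values were seen. Subunit and homology classes were assigned from general knowledge. The limma and fold scripts were tested on simulated data. A marker gene and some matched windows are not reported here.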

Additional observations from a re-analysis of the deposited data

Results flagged for a closer look

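MRPL45, the gene of the large-subunit protein mL45, had lower eCLIP values after AS with G3BP1 and higher ones with G3BP2. With G3BP1 its log10 values were 1.28 and 0.85 before AS, then 0.70 and 0.48 after it, so both AS values lie below both untreated ones. With G3BP2 they were 0 and 0.48 before AS, then 1.04 and 0.95 after it, so both lie above. The difference of the changes was 1.23 ± 0.66 on the log10 scale (SE, limma interaction with Benjamini-Hochberg adjustment, adjusted p = 1), which is not past the threshold. All of these values lie between 0 and 1.28, near the floor, and they were not scaled to the library totals, which differ. MRPL45 is also among the members with almost no reads in the rRNA-depleted pair.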

How the results depend on the processing

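With 1 library per RNA-seq condition, the spread between replicates is unknown there, and eCLIP depth limits what could be seen in short genes. SG-enriched and SG-depleted counts (6 and 48) became 1 and 18 at folds of 4 and 0.25, and enriched members fell to 0 under median scaling, which turned MRPS16 (-0.41), MRPS27 (-0.04) and MRPS30 (-0.22) negative. At a 1.5-fold threshold the counts were 1 lower in siG3BP1, 3 higher in siG3BP2, 3 higher in siG3BP2 against siG3BP1 and 7 higher in Total against siCtrl. A minimum of 5 TPM left 0 higher in siG3BP2, 0 in siG3BP2 against siG3BP1 and 1 in Total against siCtrl, no minimum gave 2 higher in siG3BP1, and median scaling gave 7 higher and 1 lower in Total. AS transcripts (12 higher, 3 lower) became 2 and 0 when summed by gene, 2 and 0 with a pseudocount of 1, 71 and 12 at 1.5-fold, 1 and 0 at a minimum of 5 RPKM and 31 and 15 without one, while median scaling gave 5 higher. MANE Select transcripts, an alternative chosen after seeing the data, gave 1 and 0. The correlation of ratio and length (0.568) was 0.723 with MANE Select length, also added later, and that of eCLIP value and span (0.794) was 0.515 with transcript length. The other two settings added later, leaving out MRPS36 or the members at 0 in eCLIP, kept the SG counts within 1.5 times, and the summed span kept the eCLIP correlation. The cause of these moves was not tested beyond what each setting changes by construction.

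For the eCLIP comparisons, a replicate block, with or without libraries scaled to the same total, called 0 members in each, as did scaling alone. With scaling alone, 253 genes were higher and 230 lower for G3BP1 after AS at an unadjusted p under 0.05, against 16 and 30 without it. For G3BP2 after AS these were 329 and 306, against 70 and 89. Deviations of same-numbered libraries correlated at 0.468 (untreated) and 0.383 (AS) between the 2 proteins, and at 0.0619 to 0.146 across treatments. With only 2 pairs in a comparison, the numbers are not shown to pair the libraries. For G3BP2 against G3BP1 in AS-treated cells, the block gave 6 higher and 1 lower member at an unadjusted p under 0.05, against 0 and 0 without it. Over all genes it gave 525 and 57, against 20 and 2. Without a filter the interaction called 1 member. Leaving out each library in turn gave 0 to 1 members for G3BP2 after AS, the 1 being MRPL55 without AS G3BP2 replicate 1 (-2.12), and 0 in the other comparisons. MRPL2 for G3BP2 after AS ran from -1.895 to 0.105 over these, turning positive without AS G3BP2 replicate 2.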
